A study of Mus musculus with 2 samples.

Results

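The transcripts examined here come from 9 genes that write, copy or remove 5-methylcytosine in mouse DNA: Dnmt1, Dnmt3a, Dnmt3b, Dnmt3l, Uhrf1, Tet1, Tet2, Tet3 and Tdg. They were chosen by symbol for their textbook roles, and all 9 were found among the 32286 features of both single-cell libraries. In mammals, the de novo enzymes DNMT3A and DNMT3B place methyl groups on unmethylated CpG sites, and DNMT3L, which has no catalytic activity of its own, binds and stimulates them. DNMT1 copies the pattern to the new strand after replication, guided to hemimethylated sites by UHRF1. TET1, TET2 and TET3 oxidise 5-methylcytosine, and TDG excises the oxidised bases so that base excision repair can restore cytosine. During the passage from naive to formative pluripotency the genome gains methylation, and Dnmt3a and Dnmt3b are known as genes of the primed and formative state, whereas Dnmt3l, Tet2 and Tet1 are abundant in embryonic stem cells. Only transcripts were measured here, not methylation or protein.

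The study asked how loss of Cnot8, a deadenylase subunit of the CCR4-NOT complex, affects exit from naive pluripotency. One library held embryonic stem cells (ESCs) of the ICR strain at 0 h, grown in serum and LIF on feeder fibroblasts, and the other held epiblast-like cells at 48 h (48h-EpiLCs), grown in N2B27 with activin A, bFGF and KSR on Matrigel. Each library was a mixture, in equal cell numbers, of WT cells carrying the ROSA mT/mG reporter, which express tdTomato, and Cnot8 KO cells, so neither line is an untreated parent of the other. The KO line came from a blastocyst of a heterozygote cross in which exon 2 of Cnot8 had been targeted with CRISPR/Cas9, and a single colony was expanded. The labels give both mixtures the genotype wild type and point to tdTomato for telling the lines apart. According to the methods, 48h-EpiLCs were formed from ESCs in 2i/LIF, while the ESC library is labelled serum/LIF, so stage, medium and library cannot be told apart.

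Cells with at least 1000 genes and at most 10% mitochondrial UMIs (unique molecular identifiers, each standing for 1 captured transcript) were kept, which left 11054 of 13184 barcodes in the ESC library and 9400 of 12427 in the 48h-EpiLC library. A cell was taken as WT if it had at least 1 tdTomato UMI and none of the Y-linked Ddx3y, Eif2s3y, Kdm5d and Uty, and as KO if it had no tdTomato UMI and at least 2 UMIs summed over those Y-linked genes. This gave 435 WT and 2978 KO ESCs and 368 WT and 2977 KO 48h-EpiLCs, with median UMIs per cell of 13151, 13368, 15598 and 17628. Only 30.9% of kept ESCs and 35.6% of kept 48h-EpiLCs could be assigned. The libraries shared 41 barcodes, and 82 kept ESCs and 84 kept 48h-EpiLCs carried both tdTomato and a Y-linked UMI (35 in each with 2 or more Y-linked UMIs) and were dropped by the rule, which cannot see doublets of 1 line. UMIs were summed per line and library to give 4 classes, expressed as CPM (counts per 1e+06 UMIs of the class). With 1 library per stage there is no replicate spread and no test, and every interval is an exact 95% Poisson or binomial interval that covers counting error only.

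All 5 pluripotency markers (Pou5f1, Sox2, Dppa5a, Tdgf1, Utf1) exceeded 5 CPM in every class. The summed level of 11 naive genes was 1393 CPM in WT ESCs, 1695 in KO ESCs, 159 in WT 48h-EpiLCs and 298 in KO 48h-EpiLCs, while 6 formative genes summed to 178, 144, 688 and 569 CPM. Markers of 7 feeder fibroblast genes summed to 10.2, 35.8, 6.91 and 10.7 CPM, with Lum at 0 in WT ESCs and Col3a1, Lum and Postn at 0 in WT 48h-EpiLCs. Cells with 3 or more markers of feeders, primitive endoderm or 2-cell-like cells numbered 12 of the WT ESCs, 148 of the KO ESCs, 0 of the WT 48h-EpiLCs and 21 of the KO 48h-EpiLCs. Cnot8 itself stood at 43.1 CPM in WT and 72.1 CPM in KO ESCs, and at 49.7 and 62.6 CPM in WT and KO 48h-EpiLCs, but 3′ tags lie outside the targeted exon and so check nothing. By rule the WT cells had no Y-linked UMI and the KO cells had at least 2. Any difference in sex chromosomes and the loss of Cnot8 cannot be told apart. X-linked genes had a median log2 ratio of KO over WT of -0.15 (300 genes) in ESCs and -0.087 (316 genes) in 48h-EpiLCs, against 0.0039 and 0.0021 for autosomal genes. Xist, the X-inactivation RNA, stood at 10.2 CPM in WT and 13.4 CPM in KO ESCs and at 3.05 CPM in WT and 8.18 CPM in KO 48h-EpiLCs, so it was higher in the line with Y-linked transcripts (0.23 and 1.11). Dusp9, an X-linked MAPK phosphatase linked to methylation in female ESCs, stood at 76.4 CPM in WT and 85.6 CPM in KO ESCs, and at 109.8 and 139.9 CPM in WT and KO 48h-EpiLCs.

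In ESCs of both lines Dnmt3l was the most abundant of the 9 transcripts and Tet1 the second, and in 48h-EpiLCs of both lines Dnmt3b was the most abundant. The KO cells at 48 h differed from WT in what came next, with Dnmt3l second in KO and Tet1 second in WT. Because a 3′ library captures each transcript once, at its end, CPM does not grow with transcript length. The order of genes is still one of counts, which overlapping or near-identical genes, described below for Dnmt3l and Tdg, can change. The intervals do not cover this. The order in WT ESCs, from the highest, was Dnmt3l, Tet1, Dnmt3b, Uhrf1, Dnmt1, Dnmt3a, Tdg, Tet2 and Tet3, and KO ESCs had the same order except that Dnmt3a preceded Dnmt1. In neither ESC class did the intervals of neighbouring genes overlap. In WT 48h-EpiLCs the order was Dnmt3b, Tet1, Dnmt3a, Dnmt3l, Uhrf1, Dnmt1, Tdg, Tet2 and Tet3, and the intervals of Tet1 and Dnmt3a, of Dnmt3l and Uhrf1, and of Tet2 and Tet3 overlapped. In KO 48h-EpiLCs it was Dnmt3b, Dnmt3l, Dnmt3a, Tet1, Uhrf1, Dnmt1, Tdg, Tet2 and Tet3, with no overlap between neighbours. Tet3 was the rarest throughout, from 5.85 to 14.5 CPM.

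**Figure D1:**
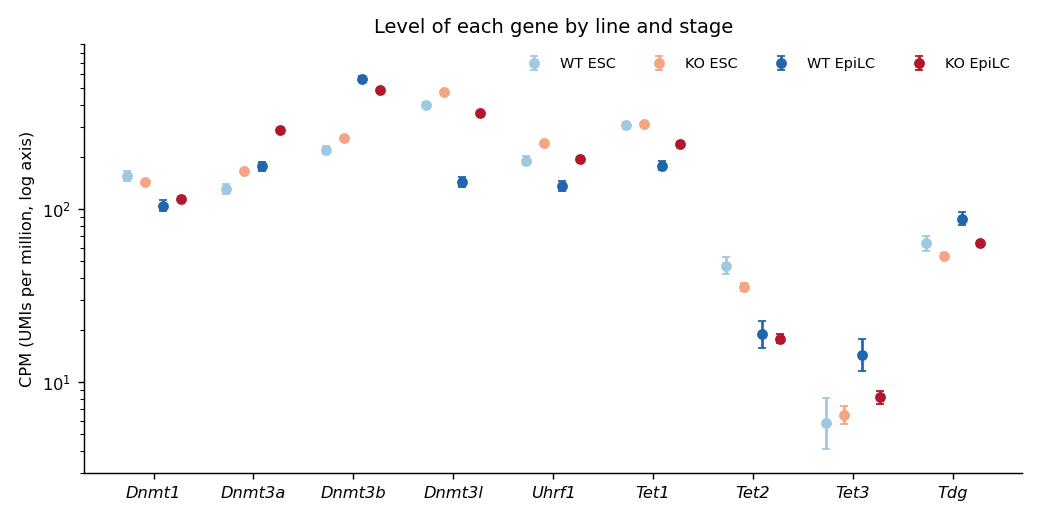
Level of each of the 9 transcripts in CPM (log axis) in WT and KO ESCs and WT and KO 48h-EpiLCs, 1 point per class, with exact 95% Poisson intervals. Dnmt3l leads in both ESC classes at 399 and 473 CPM and Dnmt3b leads in both 48h-EpiLC classes at 567 and 490 CPM.

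Differences between classes are given as the log2 ratio of CPM + 1, minus the median of that ratio over all genes with a mean of at least 5 CPM in the classes compared (the relative log2 ratio, where 0 is the median gene). That median was 0.12 for KO over WT in ESCs, 0.074 in 48h-EpiLCs, 0.028 for 48h-EpiLC over ESC in WT and -0.021 in KO, and is subtracted below. A gene is called higher or lower where the relative ratio is 1.5-fold or more.

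Dnmt3l, the catalytically inactive partner of the de novo enzymes, showed the greatest difference between lines among the 9 members. Its level was 399 CPM (2456 UMIs) in WT ESCs, 473 CPM (20866 UMIs) in KO ESCs, 143 CPM (892 UMIs) in WT 48h-EpiLCs and 362 CPM (21446 UMIs) in KO 48h-EpiLCs. WT 48h-EpiLCs thus stood below the other 3 classes, which ran from 362 to 473 CPM without overlap of their intervals. From ESC to 48h-EpiLC, the relative log2 ratio of Dnmt3l was -1.498 in WT (95% interval -1.61 to -1.39) and -0.36 in KO (-0.39 to -0.34). The KO over WT ratio was 0.12 (0.06 to 0.18) in ESCs and 1.25 (1.16 to 1.35) in 48h-EpiLCs, a 2.39-fold difference. Of the 9385 genes measured at 48 h, 98.96% had a lower ratio of KO over WT. The stage change in KO minus that in WT was 1.13 (1.02 to 1.25). Exons of Dnmt3l (chr10:78041947-78063622, plus strand, GRCm38) overlap on the opposite strand with Aire, so reads assigned to the wrong strand cannot be told apart from either gene. Aire was counted at 18.8%, 17.9%, 13.1% and 10.9% of the Dnmt3l UMIs in WT ESCs, KO ESCs, WT 48h-EpiLCs and KO 48h-EpiLCs.

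Dnmt3a, a de novo methyltransferase, was higher in KO 48h-EpiLCs than in the other 3 classes. Its level was 131 CPM (806 UMIs) in WT ESCs, 167 CPM (7351 UMIs) in KO ESCs, 177 CPM (1104 UMIs) in WT 48h-EpiLCs and 287 CPM (17039 UMIs) in KO 48h-EpiLCs. The relative log2 ratio of KO over WT was 0.22 (0.12 to 0.33) in ESCs, within 1.5-fold, and 0.62 (0.53 to 0.71) in 48h-EpiLCs, above it. The stage ratio was 0.41 (0.28 to 0.54) in WT and 0.80 (0.76 to 0.84) in KO, and the difference between these, 0.40 (0.26 to 0.53), lay within 1.5-fold. Tags at the 3′ end do not separate the long and short Dnmt3a isoforms.

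Dnmt3b, the other de novo methyltransferase, was higher at 48 h in both lines. Its level was 220 CPM (1352 UMIs) in WT ESCs, 258 CPM (11397 UMIs) in KO ESCs, 567 CPM (3527 UMIs) in WT 48h-EpiLCs and 490 CPM (29078 UMIs) in KO 48h-EpiLCs. Both 48h-EpiLC classes were above both ESC classes, and here the WT class was the highest. The stage ratio was 1.34 (1.25 to 1.43) in WT and 0.94 (0.91 to 0.97) in KO. KO over WT was 0.11 (0.03 to 0.19) in ESCs and -0.28 (-0.33 to -0.23) in 48h-EpiLCs, both within 1.5-fold, so that Dnmt3b at 48 h was on the opposite side of WT from Dnmt3a and Dnmt3l.

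The makeup of the DNMT3 transcripts therefore differed between the lines at 48 h. The sum of Dnmt3a, Dnmt3b and Dnmt3l was 750 CPM in WT ESCs, 898 in KO ESCs, 888 in WT 48h-EpiLCs and 1139.5 in KO 48h-EpiLCs. Dnmt3l made up 53.2% of these UMIs in WT ESCs and 52.7% in KO ESCs, but 16.2% in WT 48h-EpiLCs and 31.7% in KO 48h-EpiLCs. Dnmt3b made up 29.3%, 28.8%, 63.9% and 43.0% in the order WT ESC, KO ESC, WT 48h-EpiLC and KO 48h-EpiLC, and Dnmt3a 17.5%, 18.6%, 20.0% and 25.2%. The lines thus had nearly the same makeup as ESCs and differed in it at 48 h.

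The upstream sequences of the genes at the 2 ends of this pattern are shown to let their CpG content be seen, since CpG sites are the substrate of these enzymes. RefSeq promoter windows (GRCm38.p6) were found for all 9 members, 16 windows in all, and the 250 bases before each start were used. CpG sites are in capitals, read 5′ to 3′ on the plus strand, for the single Dnmt3b window at chr2:153649199-153649448 and the second of 3 Dnmt3l windows at chr10:78049592-78049841.
Dnmt3b: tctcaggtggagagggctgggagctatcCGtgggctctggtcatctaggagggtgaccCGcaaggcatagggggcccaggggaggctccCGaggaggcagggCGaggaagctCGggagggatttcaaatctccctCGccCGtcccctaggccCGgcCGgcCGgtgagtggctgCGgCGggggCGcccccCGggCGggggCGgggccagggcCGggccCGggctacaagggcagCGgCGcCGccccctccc
Dnmt3l: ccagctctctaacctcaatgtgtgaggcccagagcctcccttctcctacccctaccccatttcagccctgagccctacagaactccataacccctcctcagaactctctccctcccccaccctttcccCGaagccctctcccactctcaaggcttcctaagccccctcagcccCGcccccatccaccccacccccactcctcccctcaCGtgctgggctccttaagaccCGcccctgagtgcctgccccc

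The Dnmt3b window held 21 CpG sites and the 3 Dnmt3l windows held 5, 4 and 3, against a median of 6 over all 32851 promoters in the table. The Dnmt3l windows were the only member gene's windows that were all below that median. Among the others, the counts were 26, 7 and 2 for Dnmt1, 38, 40 and 15 for Dnmt3a, 10 and 30 for Uhrf1, 15 for Tet1, 51 for Tet2, 17 for Tet3 and 19 for Tdg. Methylation at these sites was not measured here.

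Dnmt1, the maintenance methyltransferase, was lower at 48 h than in ESCs and differed little between the lines. Its level was 155 CPM (954 UMIs) in WT ESCs, 143 CPM (6311 UMIs) in KO ESCs, 105 CPM (653 UMIs) in WT 48h-EpiLCs and 114 CPM (6756 UMIs) in KO 48h-EpiLCs. The stage ratio was -0.59 (-0.73 to -0.44) in WT, at the 1.5-fold line itself, and -0.30 (-0.35 to -0.26) in KO. Between the lines, KO over WT was -0.24 in ESCs (-0.34 to -0.14) and 0.04 at 48 h, with an interval from -0.07 to 0.16 that includes 0. The WT stage call was lost under 3 of 14 alternatives, whose values were -0.56, -0.57 and -0.55. Among the 14, taking KO cells by at least 4 Y-linked UMIs leaves the WT classes as they were, so it could not change this call.

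Uhrf1, which recruits DNMT1 to newly replicated DNA, was higher in KO than in WT at both stages, though within 1.5-fold. Its level was 191 CPM (1174 UMIs) in WT ESCs, 241 CPM (10623 UMIs) in KO ESCs, 137 CPM (850 UMIs) in WT 48h-EpiLCs and 196 CPM (11621 UMIs) in KO 48h-EpiLCs. KO over WT was 0.21 (0.12 to 0.30) in ESCs and 0.44 (0.34 to 0.54) in 48h-EpiLCs, and the stage ratio was -0.51 (-0.63 to -0.38) in WT and -0.27 (-0.31 to -0.24) in KO. Uhrf1 is known as a gene of cycling cells. The summed levels of 16 S-phase genes (2725, 2715, 2439 and 2924 CPM in WT ESCs, KO ESCs, WT 48h-EpiLCs and KO 48h-EpiLCs) and of 12 G2/M genes (2137, 2470, 2060 and 2597 CPM) moved in the same direction between the lines at 48 h, and their part in the result was not tested. Dnmt1 and Uhrf1 together stood at 346, 384, 242 and 310 CPM in the same order.

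Both maintenance genes held an upstream match to the E2F motif TTTCGCGC, known from promoters of S-phase genes, which 0.256% of all promoters in the table held on either strand. No other member window held it. In the first of 3 Dnmt1 windows the match lay on the opposite strand, 219 bases before the start and within an annotated exon, so 30 bases around it are shown (chr9:20952824-20952853, minus strand). In the second of 2 Uhrf1 windows (chr17:56304063-56304312, plus strand) it lay 185 bases before the start and outside annotated exons. The match is in capitals in both, 5′ to 3′ on the strand of the gene.
Dnmt1: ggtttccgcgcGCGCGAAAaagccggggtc
Uhrf1: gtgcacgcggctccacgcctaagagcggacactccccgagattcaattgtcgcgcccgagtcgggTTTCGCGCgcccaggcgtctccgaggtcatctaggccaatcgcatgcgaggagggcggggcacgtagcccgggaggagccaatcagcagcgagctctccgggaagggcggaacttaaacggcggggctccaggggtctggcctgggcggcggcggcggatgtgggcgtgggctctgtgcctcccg

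Neither match overlapped another motif searched. The other E2F forms, TTTGGCGC (0.417% of promoters), TTTCCCGC (0.895%) and TTTGGCGG (0.444%), were found in no member window. GGGCGG, the GC box, was in 11 of the 16 windows and in 32.7% of all promoters, CCAAT was in 6 windows and in 33.8% of all promoters, CACGTG, the E-box, was in 3 windows and in 6.02%, and TGACGTCA, the CRE, was in 1 window, that of Tdg, and in 1.55%. The remaining motifs were CATTCCA (found in 0 windows and 3.69% of promoters), GGAAT (4 windows and 34.2%), ATTTGCAT (0 windows and 1.60%), TTCCGGTT (0 windows and 0.874%), TTCCCGGAA (0 windows and 0.268%), CTTTGT (1 window and 16.5%), TGGGAA (4 windows and 21.6%) and GCGCATGCGC (0 windows and 0.782%). The motifs were chosen after the levels were known, and a match is a description of letters, not of binding.

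Tet1, the most abundant of the TET dioxygenases here, was lower at 48 h than in ESCs, and more so in WT. Its level was 304 CPM (1874 UMIs) in WT ESCs, 310 CPM (13685 UMIs) in KO ESCs, 178 CPM (1110 UMIs) in WT 48h-EpiLCs and 239 CPM (14187 UMIs) in KO 48h-EpiLCs. The stage ratio was -0.80 (-0.90 to -0.69) in WT, past 1.5-fold, and -0.35 (-0.39 to -0.32) in KO, and the difference between these was 0.44 (0.33 to 0.56), within 1.5-fold. KO over WT was -0.10 (-0.17 to -0.03) in ESCs and 0.35 (0.26 to 0.44) in 48h-EpiLCs.

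Tet2, a TET enzyme without a CXXC domain, was lower at 48 h in both lines. Its level was 47.3 CPM (291 UMIs) in WT ESCs, 35.6 CPM (1571 UMIs) in KO ESCs, 18.97 CPM (118 UMIs) in WT 48h-EpiLCs and 17.8 CPM (1058 UMIs) in KO 48h-EpiLCs. The 48h-EpiLC classes had overlapping intervals, whereas in ESCs the KO class was below WT. KO over WT was -0.52 (-0.70 to -0.34) in ESCs and -0.16 (-0.42 to 0.11) in 48h-EpiLCs. The stage ratio was -1.30 (-1.61 to -0.9998) in WT and -0.94 (-1.05 to -0.83) in KO. Over the alternatives the ESC ratio of KO over WT ran from -0.68 to -0.26. The value of -0.26 came after each cell was thinned to 5000 UMIs and lay outside the counting interval. At that depth 16.1% of WT and 15.7% of KO ESCs had a Tet2 UMI.

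Tet3, known for its role in the zygote, rested on few UMIs. Its level was 5.85 CPM (36 UMIs) in WT ESCs, 6.46 CPM (285 UMIs) in KO ESCs, 14.5 CPM (90 UMIs) in WT 48h-EpiLCs and 8.18 CPM (485 UMIs) in KO 48h-EpiLCs, so that the WT 48h-EpiLCs stood above the rest. The stage ratio was 1.15 (0.64 to 1.66) in WT and 0.32 (0.13 to 0.51) in KO. The ratio of KO over WT was -0.0015 (-0.44 to 0.45) in ESCs and -0.83 (-1.13 to -0.51), 1.77-fold lower, in 48h-EpiLCs. In unassigned 48h-EpiLCs, Tet3 was at 10.6 CPM (9.84 to 11.5) with neither tdTomato nor Y-linked UMIs. With 1 Y-linked UMI and no tdTomato it was at 10.1 CPM (8.96 to 11.3). These intervals overlapped, and both lay below that of WT 48h-EpiLCs (11.6 to 17.8). The line of the unassigned cells is not known. The stage change in KO minus that in WT was -0.83 (-1.42 to -0.23), and -0.49 after each cell was thinned to 5000 UMIs, which is within 1.5-fold. Together the TET transcripts stood at 358 CPM in WT ESCs, 352 in KO ESCs, 212 in WT 48h-EpiLCs and 265 in KO 48h-EpiLCs, of which Tet1 made up 85.1%, 88.1%, 84.2% and 90.2%.

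Tdg, the glycosylase that removes the bases TET enzymes have oxidised, was lower in KO than in WT at both stages, by less than 1.5-fold. Its level was 63.5 CPM (391 UMIs) in WT ESCs, 53.9 CPM (2376 UMIs) in KO ESCs, 88.1 CPM (548 UMIs) in WT 48h-EpiLCs and 63.7 CPM (3775 UMIs) in KO 48h-EpiLCs. KO over WT was -0.36 (-0.51 to -0.20) in ESCs and -0.54 (-0.66 to -0.41) in 48h-EpiLCs, and the stage ratio was 0.44 (0.25 to 0.63) in WT and 0.26 (0.19 to 0.33) in KO. The 48h-EpiLC ratio of KO over WT was -0.60, past 1.5-fold, without the top 10% of cells by UMI total and -0.14 with WT cells taken by at least 2 tdTomato UMIs, where the WT stage ratio was -0.01. The counts of Tdg are uncertain, because the last 500 bases of its transcript match 3 processed pseudogenes (Gm5597, Gm9855 and Tdg-ps) at 99.2% to 99.8% identity, and 367 of them lie antisense to Glt8d2. No other member had a match of at least 95% over 200 bases.

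**Figure D2:**
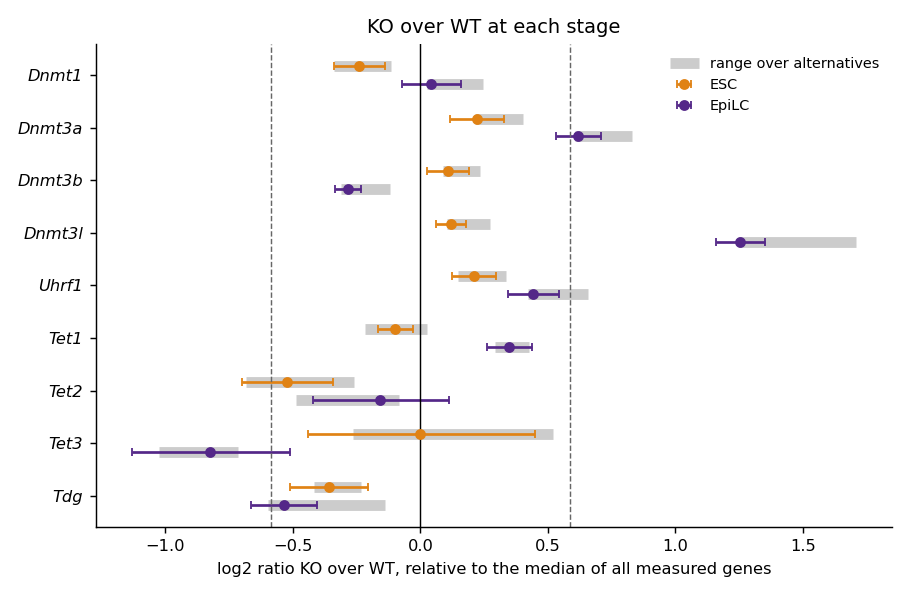
Relative log2 ratio of KO over WT for each transcript in ESCs and in 48h-EpiLCs, with 95% counting intervals as error bars, the range over all processing alternatives as grey bars and 1.5-fold as dashed lines. All 9 ESC points lie within 1.5-fold, and in 48h-EpiLCs Dnmt3l (1.25) and Dnmt3a (0.62) lie above it and Tet3 (-0.83) below it.

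Read against all genes, the members' counts were as follows. For KO over WT in ESCs, 0 of the 9 members were called, where 8.53% of 9277 genes were higher and 7.69% lower. In 48h-EpiLCs 2 members were higher, Dnmt3l and Dnmt3a, and 1 was lower, Tet3, which rests on 90 WT UMIs, where 6.18% of 9385 genes were higher and 5.76% lower. For 48h-EpiLC over ESC in WT, 2 members were higher (Dnmt3b and Tet3) and 4 lower (Dnmt1, Dnmt3l, Tet1 and Tet2), against 12.4% higher and 12.3% lower of 9242 genes. In KO, 2 were higher (Dnmt3a and Dnmt3b) and 1 lower (Tet2), against 8.99% and 9.58% of 9478 genes. The stage ratio in KO minus that in WT was past 1.5-fold for Dnmt3l (positive, since Dnmt3l was less reduced in KO) and for Tet3 (negative, since Tet3 was less increased in KO), where 4.7% of 8988 genes were past it on the positive side and 4.93% on the negative side. The median relative ratio of the members was -0.0015, 0.04, -0.51 and -0.27 in the first 4 of these comparisons, beside 0 for all genes. Without the cells rich in markers of feeders, primitive endoderm or 2-cell-like cells, the numbers of called members were 0, 3, 6 and 3 in the same comparisons. The comparisons share their classes and so are not independent of each other.

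**Figure D3:**
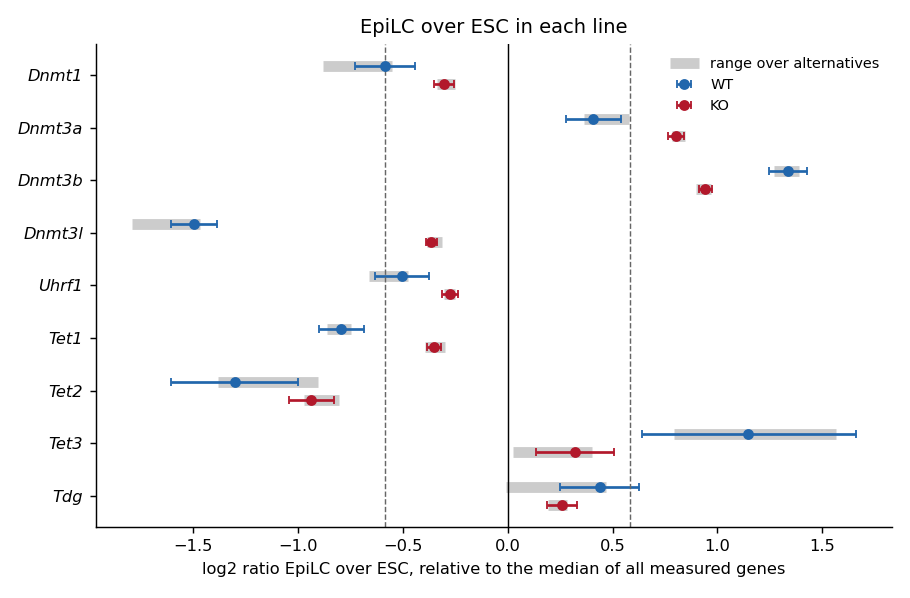
Relative log2 ratio of 48h-EpiLC over ESC for each transcript in WT and in KO, with 95% counting intervals, ranges over the alternatives in grey and 1.5-fold as dashed lines. Dnmt3l is at -1.498 in WT and -0.36 in KO, and Tet3 at 1.15 in WT and 0.32 in KO.

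The difference in Dnmt3l at 48 h was spread over the cells and was not confined to a few. To compare cells of unequal depth, each was thinned to 5000 UMIs, which dropped 1 WT and 9 KO 48h-EpiLCs. At that depth 42.8% of WT (37.7% to 48.0%) and 78.2% of KO 48h-EpiLCs (76.7% to 79.7%) had a Dnmt3l UMI, compared with 81.8% of WT and 87.7% of KO ESCs. Without thinning, the shares at 48 h were 76.1% in WT and 97.1% in KO. As a background, 38 feeder-like cells of the ESC library, with a median of 10064 UMIs and at most 1 pluripotency marker, were used, of which 31 could be thinned. No such cells were taken from the 48h-EpiLC library. In these 22.6% had a Dnmt3l UMI (9.59% to 41.1%), and that interval overlapped the one of WT 48h-EpiLCs. The Dnmt3l level in the feeder-like cells was 37.9 CPM.

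For Dnmt3a the thinned shares were 41.5% in WT ESCs, 53.6% in KO ESCs, 56.1% in WT 48h-EpiLCs and 72.0% in KO 48h-EpiLCs, and for Dnmt3b they were 61.1%, 68.6%, 90.5% and 86.1%, against 6.45% of feeder-like cells for each gene. Unthinned shares were 71.5%, 79.9%, 85.9% and 95.7% for Dnmt3a and 86.4%, 91.5%, 97.8% and 98.9% for Dnmt3b. In the ESC library both genes were thus seen in a larger share of WT and KO cells than of feeder-like cells, while the 48h-EpiLC library has no such background cells. Tet1 was seen in 13.2% and Tet2 in 10.5% of the 38 feeder-like cells before thinning, with 5 and 4 UMIs. Tet3 was seen in 3.92%, 3.42%, 6.81% and 4.31% of the thinned cells of the 4 classes. Feeder-like cells held Tet3 at 25.2 CPM, above both ESC classes, so they give no background for this gene and its shares are not read further.

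**Figure D4:**
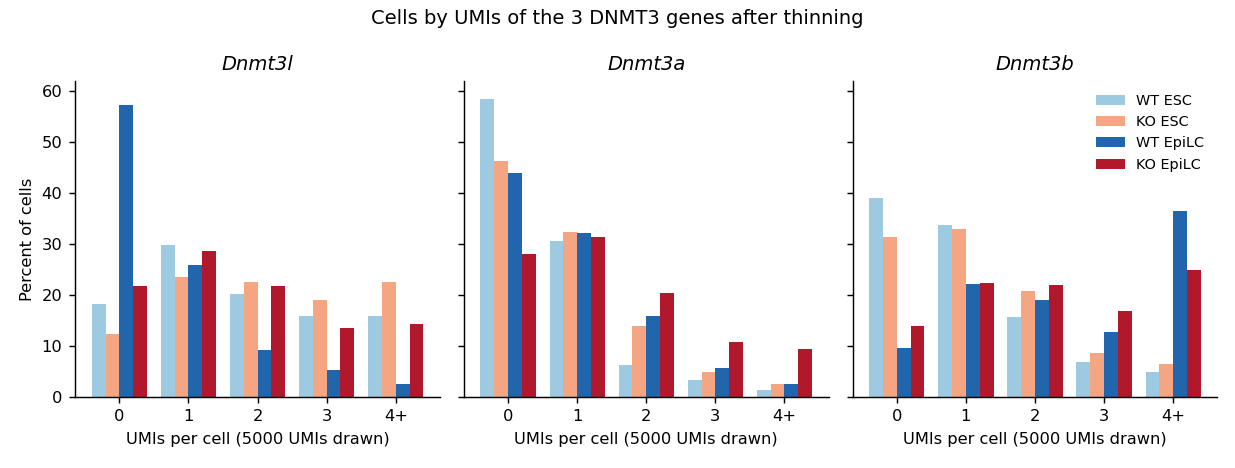
Percent of cells with 0, 1, 2, 3, or 4 and more UMIs of Dnmt3l, Dnmt3a and Dnmt3b after thinning to 5000 UMIs, in the 4 classes. For Dnmt3l, 42.8% of WT and 78.2% of KO 48h-EpiLCs had at least 1 UMI.

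Since KO 48h-EpiLCs had a higher naive level as a class, the members were compared among cells with the same number of UMIs from the 11 naive genes after thinning. No such UMI was seen in 181 WT (49.3%) and 967 KO (32.8%) 48h-EpiLCs. Among these cells Dnmt3l was at 122 CPM in WT and 307 CPM in KO, a plain log2 ratio of 1.33 (1.05 to 1.62). With 1 naive UMI the levels were 127 and 338 CPM, with 2 they were 174 and 389 CPM, and with 3 or more they were 350 CPM (20 WT cells) and 460 CPM (613 KO cells). Dnmt3l was higher in KO in the groups with up to 2 naive UMIs. In the last group the interval of the ratio, -0.09 to 0.92, included 0. These groups were chosen after seeing the data. So few UMIs per cell do not make the naive level of the lines equal, and its part in the Dnmt3l difference was not tested.

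Dnmt3a was higher in KO in all 4 of these groups, at 197 CPM in WT and 317 CPM in KO with no naive UMI, 168 and 290 CPM with 1, 200 and 320 CPM with 2, and 130 and 262 CPM with 3 or more. Dnmt3b was at 609 and 552 CPM with none, 552 and 512 CPM with 1, 570 and 477 CPM with 2, and 390 and 373 CPM with 3 or more. Its KO level was below the WT level in each naive group, and the interval of the ratio left out 0 only with none (-0.14, -0.27 to -0.01). The same cells were also grouped by UMIs of the 6 formative genes. With 0, 1, 2, and 3 or more such UMIs, the Dnmt3l ratio was 0.57 (0.10 to 1.07), 1.31, 1.43 and 1.46. None of these intervals included 0, and the ratio was smallest in the cells with no formative UMI. In the same order the Dnmt3a ratio was 0.10 (-0.45 to 0.71), 0.93, 0.84 and 0.73. Only the first of these intervals included 0, in a group with 29 WT cells. For Dnmt3b the ratios were -0.54, -0.24 (-0.48 to 0.01), -0.25 and -0.13, and only the second interval included 0.

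**Figure D5:**
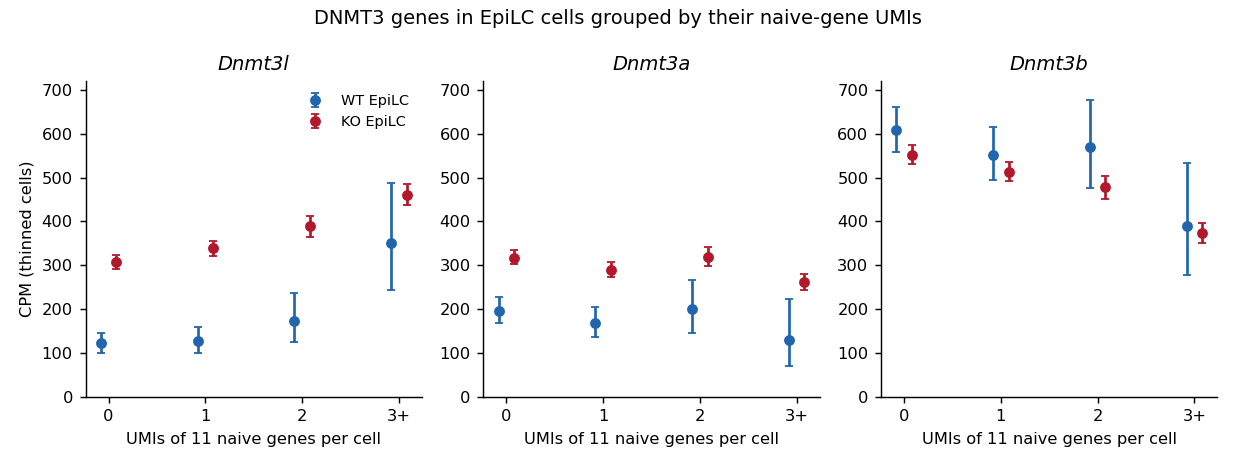
CPM of Dnmt3l, Dnmt3a and Dnmt3b in WT and KO 48h-EpiLCs grouped by 0, 1, 2, or 3 and more UMIs of 11 naive genes after thinning, with exact Poisson intervals. Dnmt3l goes from 122 CPM in the first group to 350 CPM in the last in WT, and from 307 to 460 CPM in KO.

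Within each line the 48h-EpiLCs were also ordered by a gene panel and split into 3 groups of equal size, which are ranges and not cell types. Between the highest and lowest naive group, Dnmt3l differed by a plain log2 ratio of 0.63 (0.19 to 1.08) in WT and 0.49 (0.40 to 0.59) in KO. Dnmt3b had -0.22 in WT, with an interval that only just left out 0, and -0.42 (-0.50 to -0.34) in KO, and Dnmt3a had -0.43 (-0.82 to -0.04) and -0.17 (-0.27 to -0.06). Dnmt3l was thus higher, and both de novo enzymes lower, in the cells with more naive transcripts of either line. The cuts fell among many tied cells, since 49.3% of WT cells were at 0 and 28.6% of KO cells were at 1.

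By the formative panel the order was the other way. Dnmt3l was lower in the highest group, at -0.98 (-1.46 to -0.51) in WT and -0.30 (-0.40 to -0.21) in KO, and Dnmt3a was higher, at 0.42 (0.01 to 0.83) and 0.51 (0.40 to 0.62). Dnmt3b was at 0.47 (0.38 to 0.55) in KO and at 0.19 in WT, where the interval of -0.03 to 0.41 included 0. From the least to the most formative group, Dnmt3l went from 406 to 329 CPM in KO and from 185 to 93.4 CPM in WT. The groups were cut within each line, so they do not hold the same formative level in both. In ESCs, the ratio of Dnmt3l between the highest and lowest naive groups was -0.25 (-0.50 to 0.0024) in WT and -0.09 (-0.18 to -0.01) in KO, below 0 where it was above 0 at 48 h. Dnmt3a had -0.77 (-1.24 to -0.30) in WT and -0.42 (-0.57 to -0.28) in KO ESCs, the same sign as at 48 h, and Dnmt3b had -0.43 (-0.76 to -0.10) in WT and 0.0084 (-0.11 to 0.12) in KO ESCs.

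By the S-phase panel, Uhrf1 was higher in the highest group of all 4 classes, with ratios of 0.37 in WT ESCs (0.02 to 0.73), 0.37 in KO ESCs, 0.42 in WT 48h-EpiLCs (-0.03 to 0.87, which includes 0) and 0.31 in KO 48h-EpiLCs (0.18 to 0.44). Dnmt1 had 0.19 (0.03 to 0.35) in KO ESCs and intervals that included 0 in the other 3 classes. Tet1 had 0.70 (0.42 to 0.98) in WT ESCs, 0.13 (0.02 to 0.23) in KO ESCs, -0.17 (-0.56 to 0.21) in WT 48h-EpiLCs and 0.14 (0.02 to 0.25) in KO 48h-EpiLCs. Dnmt3a had 0.36 (0.25 to 0.46) in KO 48h-EpiLCs, and -0.06, 0.0056 and 0.17 in WT ESCs, KO ESCs and WT 48h-EpiLCs, each with an interval that included 0.

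Correlations of the members across thinned cells were weak, and in counts this sparse a weak correlation says little about whether genes vary together. Spearman's rho was computed within each class and averaged, for the 7 members with a mean of at least 0.2 UMIs per thinned cell among 2985 such genes. The highest of 21 member pairs was Dnmt3a with Dnmt3b (0.082) and the lowest was Dnmt3b with Dnmt3l (-0.072), where 1% of all gene pairs lay below -0.049 and 1% above 0.050, and Dnmt1 with Uhrf1 was at 0.017. The genes most like each member were L1td1, Taf15 and Malat1 for Dnmt1, Ncl, Bms1 and Hnrnpa2b1 for Dnmt3a, Bzw1, Set and Ptma for Dnmt3b, Mt1, Hspb1 and Rbpj for Dnmt3l, Rrm2, Nasp and Canx for Uhrf1, Hnrnpu, Ncl and Msh6 for Tet1, and Ing5, BC005624 and Eif3a for Tdg. The highest of these correlations was 0.129, between Tet1 and Hnrnpu, and all are too weak to be a finding.

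Among 42 other genes of the methylation and demethylation pathway, grouped by role, few differed between the lines in ESCs. Of 37 measured there, 0 were higher and 1 was lower in KO, beside 8.53% and 7.69% of all genes. The lower gene was Gadd45a, a DNA damage gene linked to active demethylation, at 38.0 CPM in WT and 17.8 CPM in KO (-1.18, -1.38 to -0.97). In 48h-EpiLCs 3 of 36 were higher and 2 lower, shares near the 6.18% and 5.76% of all genes, so the genes named next are described singly and not as a result about the list. Dppa3, which keeps UHRF1 from chromatin in oocytes and stem cells, was at 21.5 CPM in WT and 48.4 CPM in KO (1.06, 0.82 to 1.31). Zfp57, which protects methylation at imprinted regions, was at 20.4 and 40.7 CPM (0.89, 0.64 to 1.14), and Parp1, a DNA repair polymerase, was at 492 and 780 CPM (0.59, 0.54 to 0.64). Cxxc5, a CXXC protein that binds TET2, was at 28.9 and 15.5 CPM (-0.93, -1.16 to -0.70), and Gadd45a was at 40.5 and 24.7 CPM (-0.76, -0.95 to -0.57). The median of the measured list was -0.04 in ESCs and 0.05 in 48h-EpiLCs.

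From ESC to 48h-EpiLC, 0 of 37 list genes were higher and 4 lower in WT, and 1 was higher and 4 lower in KO. Over all genes 12.4% were higher and 12.3% lower in WT, and 8.99% and 9.58% in KO, so the lower calls were near the share of all genes. Zfp57 had -2.64 (-2.91 to -2.38) in WT and -1.56 (-1.63 to -1.50) in KO. Ehmt2, a histone H3K9 methyltransferase, had -1.35 and -0.98, and Kdm2b, a CXXC protein of polycomb complexes, had -0.92 and -1.05. Dppa3 had 0.36 (-0.01 to 0.73) in WT and 1.85 (1.73 to 1.98) in KO. The medians of the list were -0.15 in WT and -0.09 in KO. By role, the medians were -0.34 in WT and -0.03 in KO for 11 maintenance partners, and -0.43 and -0.35 for 4 de novo regulators. They were -0.05 in WT (8 genes) and -0.17 in KO (9 genes) for oxidation and base excision partners, 0.01 (7 genes) and 0.06 (6 genes) for methyl-CpG readers, and -0.31 and -0.09 for 7 genes of one-carbon metabolism and cofactor supply.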

How the data were processed

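The 2 single-cell 10x 3′ v2 libraries were analysed from the deposited UMI counts per gene and cell, which the authors made with Cell Ranger 3.0.2 on mm10 with the tdTomato coding sequence added; per the labels, Seurat 4 was used downstream. Totals were 144584246 and 163771168 UMIs in the ESC and 48h-EpiLC libraries. Cells were filtered and assigned to lines as the report states, counts were summed per line and library (6154790 to 59291903 UMIs per class), and ratios used a pseudocount of 1 CPM. No doublet caller was run. The 9 members, the pathway and marker lists and the 1.5-fold rule were chosen with earlier results of these data known. Named were all members, in each comparison the 3 pathway genes past 1.5-fold with the largest ratio in each direction, and per member the 3 genes of highest mean rho. Calculations used Python 3.11.15, NumPy 2.4.6, SciPy 1.17.1 and pandas 2.3.3, with figures from matplotlib 3.10.9, and were tested on simulated data. Gene positions came from the GENCODE annotation of GRCm38, and promoters from RefSeq. The alternatives were other centring and filters, thinning, stricter assignment and leaving out cells.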

Additional observations from a re-analysis of the deposited data

Results flagged for a closer look

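The relative log2 ratio of KO over WT had opposite signs at the 2 stages for Dnmt3b, at 0.11 in ESCs and -0.28 in 48h-EpiLCs, and for Tet1, at -0.10 in ESCs and 0.35 in 48h-EpiLCs. Each value is within 1.5-fold, each rests on 1 library, and the difference between the stages was not tested against replicates. The Tet1 value in ESCs was 0.03 without centring on the median gene, so its sign there depends on the scaling.

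Aire, whose exons overlap those of Dnmt3l on the opposite strand and which is no member, was counted at 74.9 CPM in WT ESCs, 84.7 CPM in KO ESCs, 18.8 CPM in WT 48h-EpiLCs and 39.3 CPM in KO 48h-EpiLCs. It was flagged because it is a signal outside the comparisons that ran beside Dnmt3l: its relative log2 ratio of KO over WT was 0.05 in ESCs and 0.95 in 48h-EpiLCs, and its stage ratio was -1.97 in WT and -1.07 in KO. Whether these UMIs come from Aire or from Dnmt3l was not tested.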

How the results depend on the processing

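Member values were recomputed under 14 alternatives fixed at the start and, for KO over WT in 48h-EpiLCs only, 1 chosen after seeing the data (cells with no naive UMI). With a mean of at least 20 CPM, Tet3 gave no value, nor did Tet2 for KO over WT in 48h-EpiLCs. Of 633 such values, 624 kept their call, 621 kept their sign and 586 stayed within the counting interval. These counts include values that could not change. A stricter assignment of either line leaves the stage ratios of the other line as they were. Over the alternatives KO over WT in 48h-EpiLCs ran from 1.25 to 1.71 for Dnmt3l, from 0.60 to 0.83 for Dnmt3a and from -1.03 to -0.72 for Tet3. With WT taken as at least 2 tdTomato UMIs (33 and 24 WT cells), 1 member was past 1.5-fold for KO over WT in ESCs (Tet2, -0.68) and the members' median for KO over WT in 48h-EpiLCs was 0.25, with Uhrf1 at 0.66. With a mean of at least 20 CPM that median was 0.35, and 1 member differed in stage change, since Tet3 was no longer measured. With cells thinned to 5000 UMIs, 1 member differed in stage change, and the members' median for 48h-EpiLC over ESC in WT was -0.66. The causes were not tested, beyond the fewer cells or genes these settings keep. No paired analysis was possible because each stage is 1 library and the lines carry no replicate numbers. The values rest on 1 library per stage, on 435 and 368 WT cells and on lines assigned by tdTomato and Y-linked UMIs. Any difference in sex chromosomes between these lines cannot be told apart from the loss of Cnot8. Levels under about 20 CPM, such as those of Tet3 and of Tet2 at 48 h, have the widest intervals.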

Other observations

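Cells that the markers put in neither line were not used in any comparison. In the 48h-EpiLC library, 4247 kept cells with neither tdTomato nor Y-linked UMIs had Dnmt3l at 185 CPM, Dnmt3a at 204 CPM, Dnmt3b at 538 CPM, Uhrf1 at 150 CPM and Tet3 at 10.6 CPM. The 1724 cells with 1 Y-linked UMI and no tdTomato had Dnmt3l at 317 CPM, Dnmt3a at 264 CPM, Dnmt3b at 481 CPM, Uhrf1 at 187 CPM and Tet3 at 10.1 CPM. Between these groups the intervals overlapped for Tet3 but not for Dnmt3l (182 to 189 and 310 to 324 CPM). In the ESC library Dnmt3l was at 399.8 CPM in the 5321 cells with neither marker and at 452 CPM in the 2238 cells with 1 Y-linked UMI. Over all kept cells Dnmt3l was at 434 CPM in ESCs and 274 CPM in 48h-EpiLCs.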
